A study of Mus musculus with 20 samples.

Results

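The genes described here encode proteins of the mitochondrial ribosome. They were taken as every gene symbol of the array annotation that starts with Mrpl or Mrps followed by a digit, with 1 probe set per gene, the one with the highest mean over the 20 arrays. The rule found 76 genes among the 18193 genes measured, 47 named for the large subunit (Mrpl) and 29 for the small subunit (Mrps). No filter on low values was applied, and all 76 were tested. They had 156 probe sets in all, and 42 of them had several. Mrpl30 and Mrpl53 were measured only by probe sets that also match another gene and were left out. Of the 76, 45 have a counterpart in bacterial ribosomes, 30 are particular to mitochondria, and Mrps36 is in neither class, since its product is now known as a component of the α-ketoglutarate dehydrogenase complex. By structure, the products of Mrps18a and Mrps30 belong to the large subunit although their symbols name the small one.

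Mitochondrial ribosomes translate the few messenger RNAs of the mitochondrial genome, which encode core subunits of the respiratory chain and the ATP synthase. Their RNAs come from mitochondrial DNA, but all their proteins are encoded in the nucleus, made in the cytosol and imported. Liver cells are rich in mitochondria, and the promoters of these genes are known for sites of NRF1 and of the ETS family factor GABP, regulators of nuclear genes for mitochondrial proteins.

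RNA was measured in Hepa1-6, an established hepatoma line from a C57L mouse, with cRNA made from its total RNA hybridised to Affymetrix arrays. Treated cells received TGFβ1, a cytokine that signals through SMAD factors, at 1 ng/ml, and untreated cells received none. Both arms were sampled at 0, 1, 3, 6 and 10 h in biological duplicates, 10 groups of 2 arrays, and cells of every group had been in medium without growth factors for 4 h beforehand. The labels call the 0 h samples of both arms equivalent. Every later group differs from 0 h also in its time in culture after these 4 h. Cells of 1 line stand here for liver cells: Alb (11.7 to 12.5 on the log2 scale) and Afp (12.4 to 13.0) were high. Foxa2 (8.28 to 9.66) and Fgb (7.14 to 8.87) lay above the median gene level of 6.32. Ttr (5.30 to 6.21), Apoa1 (5.72 to 6.68), Apoa2 (6.13 to 6.81) and Hnf4a (6.32 to 6.96) were low or near that level. Of the cholangiocyte markers, Krt7 (9.55 to 10.95), Epcam (9.41 to 10.58) and Sox9 (7.99 to 9.49) also lay above it. Krt19 (6.28 to 7.33) was near it or above. At 10 h, 4 of 8 hepatocyte markers were lower in treated cells, against 4.06% of all genes. The median level of the 8 was 6.99 and 7.20 in the treated arrays against 7.78 and 7.89 in the untreated ones. At 0 h it was 7.10 and 7.11 treated and 7.02 and 7.03 untreated, so the untreated median had risen. Likewise 2 of 4 cholangiocyte markers were higher in treated cells at 10 h, against 5.07% of all genes. Their median level was 9.34 and 9.28 treated against 8.93 and 8.92 untreated. At 6 h these counts were 4 of 8 and 3 of 4, and 1 of 6 leukocyte and Kupffer cell markers and 2 of 6 stellate cell and fibroblast markers were higher. No marker of leukocytes or endothelial cells was called at 10 h (0 and 1 unadjusted), and 1 of 6 markers of stellate cells and fibroblasts was higher. The part of these shifts in the results below was not tested. Duplicates correlated at 0.9958 to 0.9971 over all probe sets. Skil and Smad7, feedback genes of TGFβ signalling, were higher in treated cells at 1 h by 2.27 and 2.45 on the log2 scale. In bulk RNA, fewer cells of a kind and less RNA per cell cannot be told apart.

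The upstream sequences of 5 members are shown, because Mrpl41 and Mrpl16 had the largest mean differences between treated and untreated cells, and the other 3 were lower in treated cells and hold a letter match to a regulator named above. Each is the 250 bases before the start of the gene in RefSeq, build GRCm38.p6, 5′ to 3′ on the strand of the gene. Capitals mark matches, on either strand, to 5 strings: GCATGCGC for NRF1, CCGGAAGT for GABP and other ETS factors, AAGATGGC for YY1, CACGTG (the E-box) and CAGACA for SMAD.
Mrpl41 (chr2:24975099-24975348, minus strand): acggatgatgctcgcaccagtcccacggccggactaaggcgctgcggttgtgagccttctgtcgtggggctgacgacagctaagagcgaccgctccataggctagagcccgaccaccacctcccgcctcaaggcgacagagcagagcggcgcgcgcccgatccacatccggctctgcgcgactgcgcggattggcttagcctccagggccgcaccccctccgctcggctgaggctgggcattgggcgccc
Mrpl16 (chr19:11770165-11770414, plus strand): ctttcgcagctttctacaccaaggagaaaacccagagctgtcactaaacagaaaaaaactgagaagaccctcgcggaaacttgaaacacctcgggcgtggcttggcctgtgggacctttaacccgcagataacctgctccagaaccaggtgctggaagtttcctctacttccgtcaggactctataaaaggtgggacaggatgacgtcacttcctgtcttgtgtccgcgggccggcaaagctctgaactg
Mrpl27 (chr11:94653541-94653790, plus strand): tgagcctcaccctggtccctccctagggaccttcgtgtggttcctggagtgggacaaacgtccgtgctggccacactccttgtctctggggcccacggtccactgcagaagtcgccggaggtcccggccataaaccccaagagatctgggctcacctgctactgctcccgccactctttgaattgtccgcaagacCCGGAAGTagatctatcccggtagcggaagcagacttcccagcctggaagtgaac
Mrps18b (chr17:35916441-35916690, minus strand): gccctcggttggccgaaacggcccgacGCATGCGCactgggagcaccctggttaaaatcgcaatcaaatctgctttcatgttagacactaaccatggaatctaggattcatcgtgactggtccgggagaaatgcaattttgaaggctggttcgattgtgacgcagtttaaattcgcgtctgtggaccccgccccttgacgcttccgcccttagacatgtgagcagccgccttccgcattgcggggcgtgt
Mrps18c (chr5:100798509-100798758, plus strand): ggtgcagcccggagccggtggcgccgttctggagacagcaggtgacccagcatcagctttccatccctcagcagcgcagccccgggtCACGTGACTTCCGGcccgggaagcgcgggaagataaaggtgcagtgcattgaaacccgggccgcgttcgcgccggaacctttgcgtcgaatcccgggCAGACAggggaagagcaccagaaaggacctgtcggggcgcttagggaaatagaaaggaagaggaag

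Mrpl41 and Mrpl16 held none of the 5 strings in this window. In Mrps18c the E-box and the ETS string stand next to each other without overlap. Upstream sequences were found for 67 of the 76 members, 73 sequences in all, and were compared with 32851 upstream sequences of the same length. The ETS string was in 10 of the 73 (13.7%) against 2.88% of all, the NRF1 string in 8 (11.0%) against 2.26%, and the YY1 string in 4 (5.5%) against 1.56%. The E-box was in 7 (9.6%, of 5 genes) against 6.02%, and the SMAD string in 13 (17.8%) against 17.13%. A match is a run of letters and not a measured binding site. The sequences shown with a match were picked for their calls. Of the other members with the NRF1 or ETS string, Mrpl33 was lower in treated cells at 10 h and Mrpl51 at 6 h. Mrpl3, with the ETS string, was higher at 6 h, and the rest were not called at 1, 3, 6 or 10 h. Whether the strings go with the calls was not tested.

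The representative probe sets of the members had mean values from 7.20 (Mrps27) to 12.30 (Mrpl13), above 58.0% to 98.5% of all genes, so each lay above the median gene level. The median over the 76 genes was 10.28 and 10.27 in the untreated arrays at 0 h and 10.29 and 10.28 in the treated arrays at 0 h. At 3 h it was 10.29 in both untreated arrays and 10.23 and 10.25 in the treated ones. In untreated cells it was 10.24 and 10.26 at 6 h and 10.12 and 10.19 at 10 h. In treated cells it was 10.14 and 10.15 at 6 h and 10.02 and 10.06 at 10 h. The treated arrays thus lay below the untreated arrays of the same time at 3, 6 and 10 h with no overlap, and the arrays of both arms at 10 h lay below those at 0 h. For the 29 small subunit genes alone the arms were apart at 1, 3, 6 and 10 h (at 10 h 9.90 and 9.99 treated, 10.05 and 10.10 untreated). For the 47 large subunit genes the medians overlapped at 1, 3, 6 and 10 h (at 10 h 10.13 to 10.22 treated, 10.21 to 10.25 untreated). The sums of their unlogged values did not overlap at 6 h (60590 and 59990 treated, 64930 and 66030 untreated). At 10 h they were 56450 and 58440 treated and 61110 and 62150 untreated, so the overlap is one of medians. The median or sum of a list is a description here and was not tested, and neither was a difference between the subunits.

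**Figure D1:**
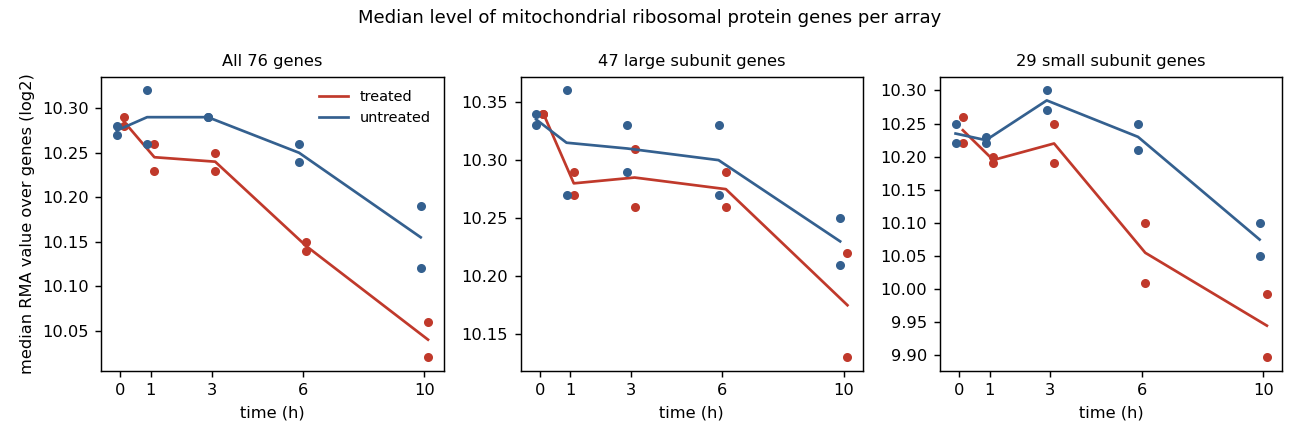
Median RMA value (log2) over all 76 mitochondrial ribosomal protein genes and over the large and small subunit genes, against time in h. Points are arrays, lines join the means of 2 arrays, and the vertical axes differ between panels. For all 76 genes, treated arrays at 10 h sit at 10.02 and 10.06 and untreated ones at 10.12 and 10.19.

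At 0 h, where no difference in exposure exists, treated and untreated cells differed in 0 members after adjustment by limma and in 3 at an unadjusted p under 0.05. Of all genes, 0% were higher and 0% lower. After 1 h of TGFβ1 the count was again 0 members (8 unadjusted), with a median log2 difference of −0.03. Of all genes, 1.91% were higher and 0.324% lower at that time.

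After 3 h, 6 members were lower in treated than in untreated cells and 0 were higher, with 11 members at an unadjusted p under 0.05. The 6 make 7.89% of the members, against 8.55% of all genes lower and 6.73% higher, so the share was near that of the background. Of the 1524 genes within the members' interquartile range of level, members included, 19.6% were lower and 13.4% higher, so the members' shares were below those of genes of like level. That comparison was chosen after the data had been seen, because shares rise with level, and it is given below as genes of like level; its gaps were not tested. The largest difference was that of Mrpl41, a large subunit protein particular to mitochondria that also binds BCL2. Its values were 9.81 and 9.89 in untreated cells and 9.51 and 9.55 in treated cells. The groups did not overlap, and the level was 1.25-fold lower (log2 difference −0.32 ± 0.06, SE, adjusted p = 0.0006012). Mrpl16, the counterpart of a bacterial protein near the peptidyl transferase centre, read 10.80 and 10.86 without and 10.54 and 10.68 with TGFβ1 (1.16-fold lower, adjusted p = 0.01145). The remaining differences were smaller: −0.17 for Mrpl45, which ties the ribosome to the inner membrane, −0.15 for Mrps6, −0.14 for Mrpl15 and −0.13 for Mrpl35. Without treated replicate 1 or untreated replicate 2 only 1 member was called, without treated replicate 2 there were 2, and without untreated replicate 1 there were 3. Mrpl41 kept its call without each of these arrays, Mrpl16 lost it without treated replicate 1 and without untreated replicate 2, and each of the other 4 lost it without at least 3 of the arrays.

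After 6 h, members of both subunits were lower in treated cells. Of the 76, 20 were lower (26.3%) and 1 was higher (1.32%), against 7.96% lower and 7.77% higher among all genes. The median difference was −0.10 for the members and −0.03 for all genes, and 66 of 76 members had a negative value. Among all genes above the median level, 14.3% were lower and 13.9% higher. Of genes of like level, 18.8% were lower and 16.7% higher, with a median difference of −0.01.

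Mrpl41 read 9.85 and 9.94 in untreated and 9.48 and 9.52 in treated cells at 6 h, with no overlap. It was 1.31-fold lower (−0.39 ± 0.06, SE, adjusted p = 6.078e-05). Mrpl16 read 10.91 and 10.94 against 10.51 and 10.61, again apart, and was 1.29-fold lower (−0.36 ± 0.06, SE, adjusted p = 9.972e-05). Mrpl45 read 10.71 and 10.81 against 10.42 and 10.49 and was 1.23-fold lower (adjusted p = 0.0003463). Mrpl13, a counterpart of a bacterial large subunit protein, read 12.44 and 12.42 against 12.17 and 12.13 and was 1.22-fold lower (adjusted p = 0.0002313). A further probe set of Mrpl13 with a high level differed by −0.04 and was not called, and with the mean of its 4 probe sets the gene differed by −0.11 (adjusted p = 0.4208). In each of these genes both treated arrays lay below both untreated ones. Mrpl57, particular to mitochondria, differed by −0.27, and its call was lost without untreated replicate 2 and with the mean of its probe sets (adjusted p = 0.1729), the other of which reads 4.92 on average. Among small subunit genes, Mrps34 and Mrps6 differed by −0.24 each and Mrps18b by −0.23. Mrps18b carries the NRF1 string shown above and read 10.08 and 10.08 against 9.86 and 9.83. The 1 higher member was Mrpl3, a counterpart of a bacterial large subunit protein, with 9.81 and 9.82 against 9.92 and 10.02 (0.15 ± 0.05, SE, adjusted p = 0.04073). That call was lost without treated replicate 2 and without either untreated array. Over all members the count of calls fell from 21 to 12 without treated replicate 2 or without untreated replicate 1, and was 17 and 15 without the other two arrays.

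After 10 h, 22 members were lower in treated cells (28.9%) and 1 was higher, against 4.06% lower and 5.07% higher among all genes and 10.4% lower and 13% higher among the 1524 genes of like level. The median difference was −0.07 for the members, −0.003 for all genes and 0.01 for genes of like level. Of the 76 members, 58 had a negative value. The largest difference was that of Mrpl38, particular to mitochondria, which read 8.83 and 8.90 in untreated and 8.18 and 8.40 in treated cells. It was 1.49-fold lower (−0.58 ± 0.10, SE, adjusted p = 0.0007248), but the other probe sets of Mrpl38 differed by −0.11 and −0.13 and were not called. Mrps24, a counterpart of a bacterial small subunit protein, read 11.12 and 11.18 against 10.83 and 10.89 and was 1.22-fold lower (−0.29 ± 0.05, SE, adjusted p = 0.0002538). Mrpl46 read 9.39 and 9.46 against 9.07 and 9.20 and was lower by the same fold (adjusted p = 0.008085). Both of these genes had treated values wholly below the untreated ones.

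Mrpl16 and Mrpl41 still differed at 10 h by −0.27 each, Mrpl28 by −0.26 and Mrpl57 by −0.25. Mrpl27, whose upstream ETS string is shown above, read 11.45 and 11.49 in untreated and 11.18 and 11.25 in treated cells (−0.25 ± 0.04, SE, adjusted p = 0.0002258). Mrps18c, with its E-box and ETS strings, read 10.10 and 10.23 against 9.90 and 9.99 (−0.22 ± 0.05, SE, adjusted p = 0.007667). Mrpl24, a counterpart of a bacterial large subunit protein, was the 1 higher member, with 10.28 and 10.27 against 10.40 and 10.49 (0.17 ± 0.05, SE, adjusted p = 0.02712). The count at 10 h fell from 23 to 5 without treated replicate 1 and to 5 without untreated replicate 2, and was 12 without untreated replicate 1 and 16 without treated replicate 2. Mrpl38, Mrps24 and Mrpl27 kept their calls without each of these arrays. Mrpl16, Mrpl28, Mrpl41, Mrpl46 and Mrpl57 lost theirs without treated replicate 1 and without untreated replicate 2, and Mrpl24 lost its call without treated replicate 2 and without either untreated array.

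Averaged over 1, 3, 6 and 10 h, 31 members were lower in treated cells (40.8%) and 3 higher, against 11.6% lower and 10.9% higher among all genes. Among the 1524 genes of like level, 25.4% were lower and 21.1% higher. Mrpl41 (−0.28 ± 0.03, SE), Mrpl16 (−0.25), Mrpl57 (−0.21) and Mrpl45 (−0.18) led, followed by Mrpl46 and Mrps6 (−0.17 each) and Mrps24 and Mrpl54 (−0.16 each). These 8 calls were kept when any single array was left out, but those of Mrpl57 and Mrpl54 were lost with the mean of a gene's probe sets (adjusted p = 0.1414 and 0.5101). The higher members were Mrps23 (0.10), Mrpl24 and Mrpl3 (0.08 each), and each of these calls was lost without 1 or more single arrays, among them untreated replicate 2 at 10 h for Mrps23 and treated replicate 2 at 10 h for Mrpl24 and Mrpl3. By time, 4 members were lower at 3, 6 and 10 h (Mrpl16, Mrpl41, Mrpl45 and Mrps6), 10 at 2 of these times and 16 at 1. Another 2 were higher at 1 time, and 44 of the 76 were not called at any of them. Of all genes 8.55%, 7.96% and 4.06% were lower at 3, 6 and 10 h, and of genes of like level 19.6%, 18.8% and 10.4%. Calls at several times were not counted for those genes, so whether such repeats are unusual was not tested.

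**Figure D2:**
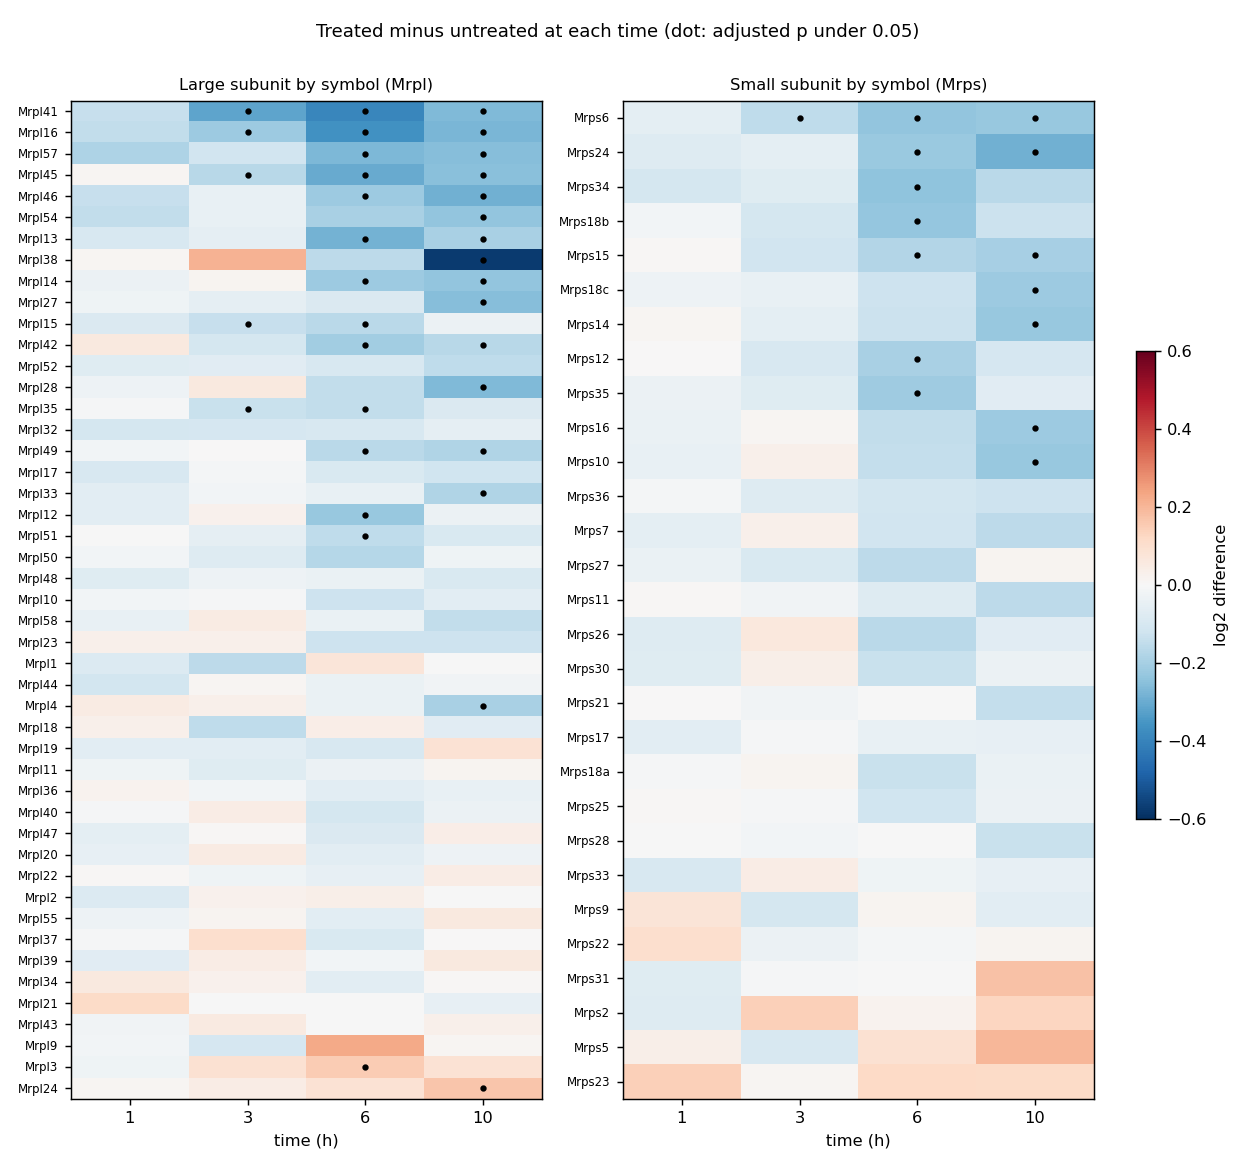
Treated minus untreated log2 difference of each of the 76 genes (rows, in the order of their mean difference within each subunit) at 1, 3, 6 and 10 h (columns), with dots where the adjusted p was under 0.05. Blue is lower in treated cells: at 6 h 20 genes carry a dot in blue and 1 in red, and at 10 h 22 and 1.

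The change of the treatment effect between neighbouring times was tested directly. From 1 to 3 h, 0 members changed (4 unadjusted), against 2.47% of all genes whose effect shifted up and 3.94% down. From 3 to 6 h, 1 member changed, Mrpl12, against 2.86% up and 1.69% down of all genes. Mrpl12 encodes the stalk protein of the large subunit, a counterpart of a bacterial protein that recruits translation factors. It read 11.46 and 11.43 in untreated and 11.47 and 11.47 in treated cells at 3 h, and 11.52 and 11.48 against 11.29 and 11.26 at 6 h, so that its arms parted between these times. The change was −0.25 ± 0.07 (SE, adjusted p = 0.04438), and the call was lost without any one of the 8 arrays. From 6 to 10 h, 0 members changed (5 unadjusted), against 1.11% up and 1.33% down of all genes. Without treated replicate 1 at 10 h, 1 member was called.

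By 10 h, 41 members differed from 0 h in untreated cells and 52 in treated cells, against 23 between the arms. In untreated cells 0 members differed from 0 h at 1 h (5 unadjusted), where 0.104% of all genes were higher and 0.0824% lower. At 3 h 3 were higher and 2 lower, against 4.95% and 3.21% of all genes: Mrpl41 (0.44), Mrps12 (0.19) and Mrpl27 (0.14) were up, and Mrpl38 (−0.41) and Mrps2 (−0.21) down. Without any one of these arrays the count of 5 fell to 1 or 2, the lowest without untreated replicate 1 at 3 h, and Mrpl41 kept its call each time. Of genes of like level, 12.1% were higher and 7.55% lower at 3 h. At 6 h 7 members were higher and 10 lower, against 10.4% and 10.3% of all genes and 23.2% and 21.6% of genes of like level, and the count of 17 fell to 10 without untreated replicate 2 at 0 h and to 11 without untreated replicate 2 at 6 h. At 10 h 7 were higher (9.21%) and 34 lower (44.7%), against 13.3% and 12.8% of all genes and 27.8% and 26.9% of genes of like level.

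The largest falls in untreated cells were those of small subunit genes. Mrps2, a counterpart of a bacterial small subunit protein, read 10.15 and 10.08 at 0 h, 9.88 and 9.93 at 3 h, 9.59 and 9.55 at 6 h and 9.26 and 9.39 at 10 h. Its arrays at these times did not overlap, and at 10 h it had fallen 1.73-fold (−0.79 ± 0.05, SE, adjusted p = 4.329e-10). Mrps25, particular to mitochondria, went from 9.71 and 9.59 to 8.87 and 8.95, a 1.67-fold fall (−0.74 ± 0.06, SE, adjusted p = 1.668e-08). Mrps26 fell by 0.50 on the log2 scale, Mrps23 by 0.44, Mrpl18 by 0.43, Mrpl42 by 0.41, Mrps7 by 0.37 and Mrpl39 by 0.36. These 8 calls were kept when any single array was left out.

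A smaller set rose in untreated cells, among them Mrpl41 and Mrpl16, the members with the largest mean differences from treated cells. Mrpl41 went from 9.42 and 9.40 at 0 h to 9.81 and 9.89 at 3 h, 9.85 and 9.94 at 6 h and 9.80 and 9.87 at 10 h. The rise was 0.44, 0.49 and 0.43 on the log2 scale (adjusted p = 7.089e-05, 4.796e-06 and 1.27e-05). In treated cells Mrpl41 read 9.38 and 9.43 at 0 h and 9.47 and 9.66 at 10 h, a difference of 0.16 that passed narrowly (adjusted p = 0.04552); leaving out treated replicate 1 or 2 at 0 h, or treated replicate 2 at 10 h, ended that call. Its lower level under TGFβ1 was thus measured against a rise in the untreated arm, and not as a fall from 0 h. Mrps6, a counterpart of a bacterial small subunit protein, went from 10.00 and 10.00 to 10.33 and 10.39 in untreated cells by 10 h (0.36, adjusted p = 9.915e-06) and from 10.11 and 10.05 to 10.12 and 10.15 in treated cells (0.05, adjusted p = 0.547). Mrpl16 rose in untreated cells by 0.26 at 6 h and 0.22 at 10 h, the calls being lost without untreated replicate 2 at 0 h and, at 10 h, also without untreated replicate 2 at 10 h. Mrpl17 (0.23 at 6 and 10 h) and Mrps12 (0.25 at 6 h) also rose; both calls of Mrpl17 were lost with the mean of its probe sets, and that at 6 h also without untreated replicate 2 at 0 h.

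In treated cells 0 members differed from 0 h at 1 h (6 unadjusted), where 2.45% of all genes were higher and 1.06% lower. At 3 h 1 was higher and 5 lower, against 7.55% and 8.28% of all genes and 15.1% and 19% of genes of like level: Mrpl39 by 0.15, and Mrps25 (−0.27), Mrps18b (−0.23), Mrpl45 and Mrpl18 (−0.21 each) and Mrpl42 (−0.20). Each of these 6 calls was lost without at least 1 of the arrays, and the count of 6 fell to 2 without treated replicate 1 at 0 h or without either treated array at 3 h. At 6 h 1 was higher and 33 lower (43.4%), against 11.2% and 12.8% of all genes and 23.2% and 28.3% of genes of like level. The count of 34 was 22 without treated replicate 2 at 6 h. At 10 h 4 were higher and 48 lower (63.2%), against 14.5% and 13.6% of all genes and 30.6% and 28.4% of genes of like level, with a median of −0.23. Of the 76 members, 58 had an unadjusted p under 0.05. Leaving out any single array gave 44 to 49 calls at 10 h in place of 52.

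Mrps25 read 9.71 and 9.74 at 0 h and 8.85 and 8.89 at 10 h in treated cells, a 1.81-fold fall (−0.86 ± 0.06, SE, adjusted p = 1.627e-09). Mrps2 read 10.08 and 10.16, then 9.46 and 9.46, a 1.58-fold fall (adjusted p = 3.202e-09). Both fell without treatment by a like amount, and at 10 h the arms differed by −0.04 for Mrps25 (adjusted p = 0.838) and 0.13 for Mrps2 (adjusted p = 0.136). These comparisons share arrays. Mrpl42 fell by 0.58 on the log2 scale, Mrps7 and Mrps26 by 0.57 each (Mrps26 by 0.18 with the mean of its probe sets, adjusted p = 0.1047), Mrps10 by 0.54 and Mrpl18 by 0.50. Mrps24 fell by 0.25 in treated cells at 10 h (adjusted p = 0.000204) and read 0.05 higher in untreated cells (adjusted p = 0.522). Of the 4 members that were higher in treated cells at 10 h, Mrpl41 is described above. Mrps5, a counterpart of a bacterial small subunit protein, rose by 0.37 in treated cells (9.54 and 9.46, then 9.89 and 9.85, adjusted p = 0.0008206). In untreated cells Mrps5 rose by 0.23, a call lost without untreated replicate 2 at 0 h and without either untreated array at 10 h. Mrpl32 rose by 0.13, a call lost without treated replicate 2 at 0 h and without either treated array at 10 h. Mrpl1 rose by 0.29 at 6 h, the 1 higher member then, and by 0.29 at 10 h. Both of its calls were lost without treated replicate 1 at 0 h and without treated replicate 2 of the later time, and the mean of its probe sets gave −0.13 and −0.18.

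**Figure D3:**
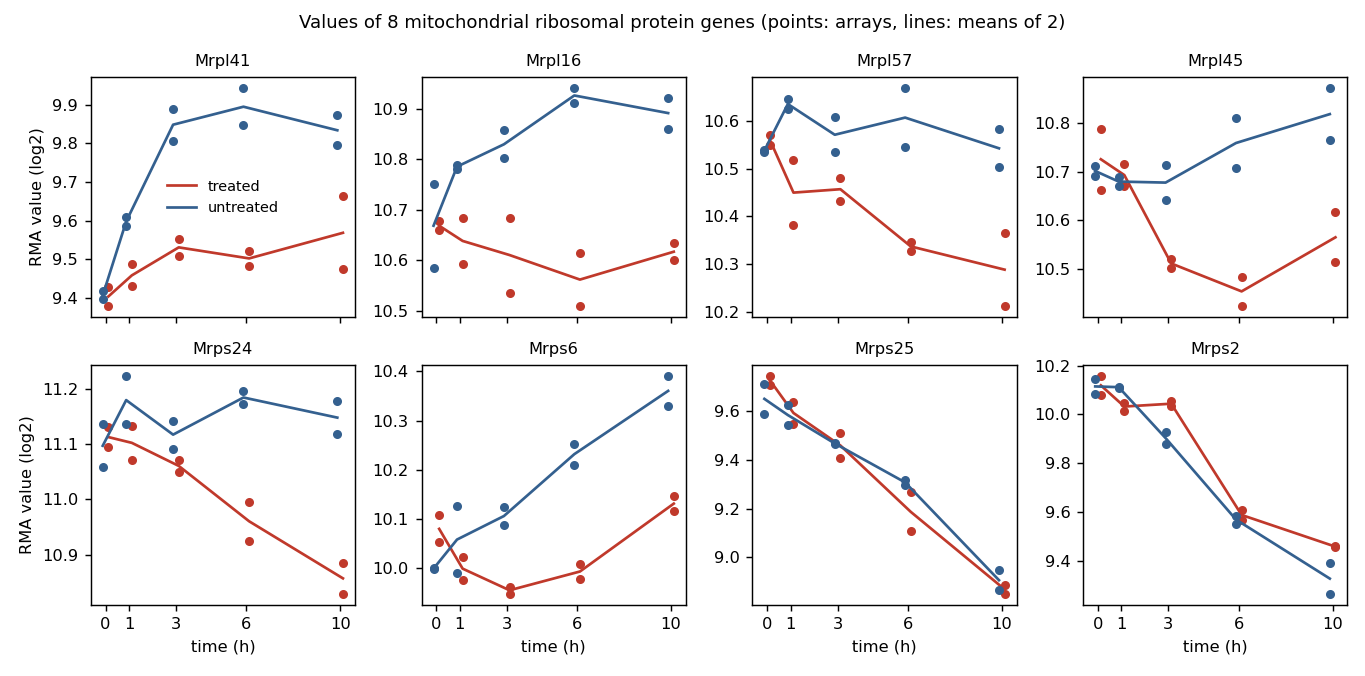
RMA values (log2) of 8 mitochondrial ribosomal protein genes against time in h, with arrays as points, lines through the means of 2, and a vertical axis of its own in each panel. Mrpl41, Mrpl16 and Mrps6 rise in the untreated arm, Mrpl57, Mrpl45 and Mrps24 separate with lower treated values, and Mrps25 and Mrps2 fall in both arms.

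The changes from 0 to 10 h were compared between the arms, which share no arrays. Across the 76 members the untreated and the treated change correlated at r = 0.82, a description over genes, which are not replicates. It was 0.81 over genes of like level and 0.67 over all genes. The change was negative in both arms for 54 members, and for 62 of the 76 the treated change was below the untreated one. These counts make 71.1% and 81.6% of the members, against 41.0% and 47.5% of genes of like level and 30.5% and 52.8% of all genes, differences that were not tested.

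**Figure D4:**
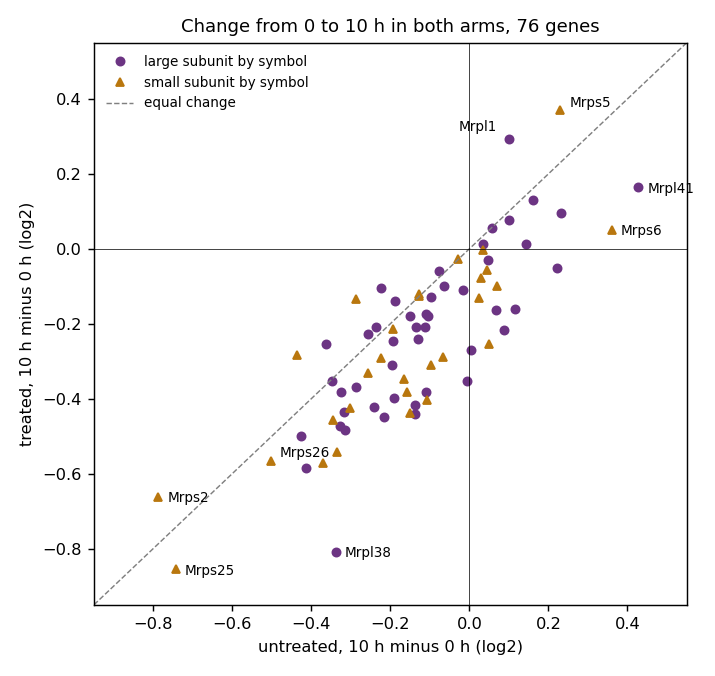
Log2 change from 0 to 10 h in untreated (horizontal) and treated cells (vertical) for each of the 76 genes, by subunit, with the dashed line marking equal change. Most points (62 of 76) lie below that line; Mrps2 and Mrps25 are the lowest in the untreated arm, and Mrpl41 and Mrps6 lie far to the right.

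At 3 h 5 of 47 large and 1 of 29 small subunit genes were lower in treated cells (10.6% and 3.45%). At 6 h 13 of 47 large and 7 of 29 small subunit genes were (27.7% and 24.1%), and at 10 h 15 and 7 (31.9% and 24.1%). Of all genes 8.55%, 7.96% and 4.06% were lower at these times, and of genes of like level 19.6%, 18.8% and 10.4%. In untreated cells at 6 h, 4 of 47 large and 6 of 29 small subunit genes were lower than at 0 h. This stands against 10.3% of all genes and 21.6% of genes of like level. Of members with a bacterial counterpart, 10 of 45 were lower in treated cells at 6 h (22.2%) and 14 at 10 h (31.1%). Of those particular to mitochondria, 10 of 30 and 8 of 30 were (33.3% and 26.7%). The differences between the subunits and between these classes were not tested. Dap3, a small subunit gene whose symbol falls outside the rule, read 11.21 and 11.19 without and 10.99 and 11.00 with TGFβ1 at 6 h. It was lower by 0.20 (limma, adjusted p = 0.002766). Of the 4 listed subunit genes outside the rule, Dap3 was the only one called between the arms at 6 h and at 10 h.

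Other probe sets of the same genes were read beside the representative ones. They measure the same RNA on the same arrays, for members already picked as lower. Most members had negative values at 6 and 10 h in any case. The signs of the other probe sets are thus a description and no independent check. Of the 20 members lower at 6 h, 7 had other probe sets above the median gene level, 12 in all. Of these 12, 11 were negative, 1 was positive, and 3 were called lower when every probe set was tested. At 10 h, 10 of the 22 had 13 such probe sets, of which 12 were negative and 3 called. For Mrpl41 a further bright probe set differed by −0.28, −0.32 and −0.19 at 3, 6 and 10 h, and was not called at 10 h (limma, adjusted p = 0.06794). For Mrps6 such a probe set differed by −0.15, −0.33 and −0.21. It was called at 6 h only (limma, adjusted p = 0.1959 at 3 h and 0.08039 at 10 h).

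The other gene groups of mitochondrial gene expression and of ribosome production were counted by the same calls. Of all genes 8.55%, 7.96% and 4.06% were lower at 3, 6 and 10 h, and 6.73%, 7.77% and 5.07% higher. Among genes of like level to the members, 19.6%, 18.8% and 10.4% were lower. Of 43 cytosolic ribosomal protein genes, whose median level of 13.76 is close to the top of the array's scale, 1 was lower in treated cells at 3 h, 1 at 6 h and 0 at 10 h (1 unadjusted). Of 73 nuclear genes of the respiratory chain and ATP synthase, 1, 6 and 10 were lower at these times (1.37%, 8.22% and 13.7%). In this list 1 gene was higher at 6 h. Ndufv3, a subunit of complex I, differed by −0.32 at 6 h (adjusted p = 1.627e-05). Of 29 genes of mitochondrial import and chaperones, 4, 10 and 3 were lower (13.8%, 34.5% and 10.3%) and 2, 1 and 0 higher. Timm22, the channel of the carrier import pathway, was higher by 0.87 at 3 h (adjusted p = 6.71e-11).

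Among genes that act with the mitochondrial ribosome, the 14 translation factors had 0 calls at each of 3, 6 and 10 h (0, 2 and 1 unadjusted). Of 25 assembly genes 4, 3 and 0 were lower (16%, 12% and 0%) and 2, 4 and 2 higher at these times. Tfb1m, which methylates the small ribosomal RNA, differed by −0.44 at 3 h (adjusted p = 0.000321), and the GTPase gene Mtg2 by −0.51 at 6 h (adjusted p = 6.476e-05). Of 16 mitochondrial aminoacyl-tRNA synthetase genes, 1, 3 and 1 were lower (6.25%, 18.8% and 6.25%). Cars2 led them with −0.48 at 6 h (limma, adjusted p = 0.0001102). Of 19 genes of mitochondrial DNA maintenance and transcription, 5, 4 and 1 were lower (26.3%, 21.1% and 5.26%) and 1, 0 and 0 higher. Of 34 nucleolar genes of cytosolic ribosome biogenesis, 12, 10 and 0 were lower (35.3%, 29.4% and 0%) and 1, 2 and 3 higher. For the mitochondrial ribosomal proteins 6, 20 and 22 were lower (7.89%, 26.3% and 28.9%) and 0, 1 and 1 higher. The difference in timing between these lists was not tested.

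**Figure D5:**
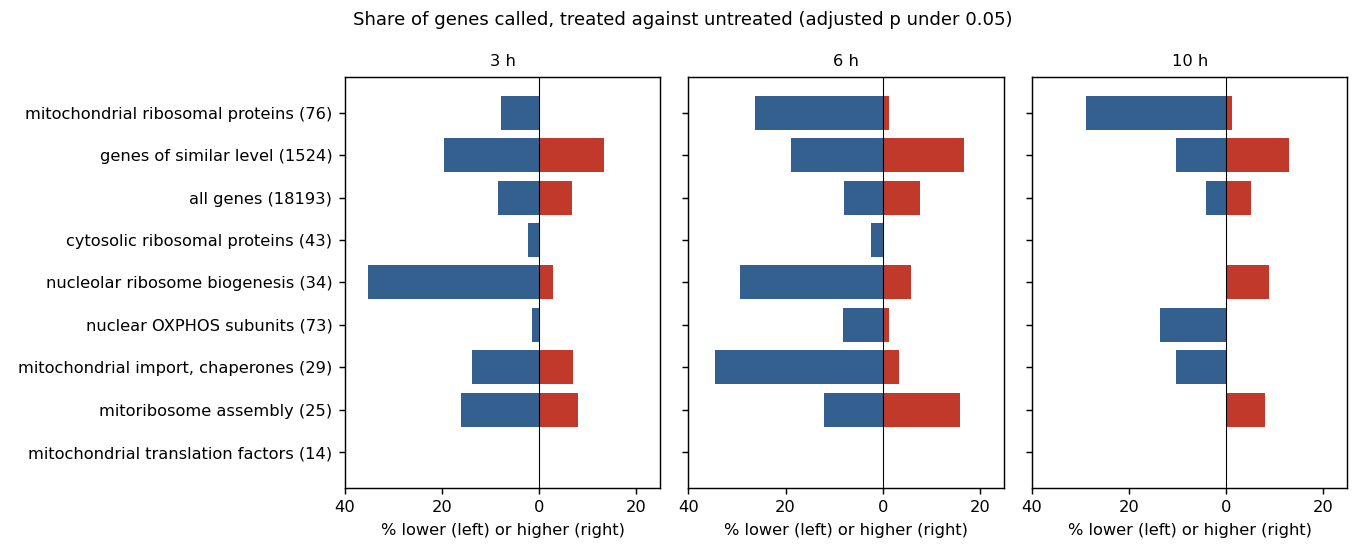
Percent of genes lower (blue, left) or higher (red, right) in treated than in untreated cells at 3, 6 and 10 h, by limma with an adjusted p under 0.05, for the 76 mitochondrial ribosomal protein genes, 1524 genes of like level, all 18193 genes and 6 related lists. At 10 h the members' blue bar reaches 28.9% and that of all genes 4.06%.

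Of 13 regulators of genes for mitochondrial proteins, Ppargc1b, a coactivator of NRF1, had the largest difference. It read 6.71 and 6.70 in untreated and 5.29 and 5.40 in treated cells at 3 h, without overlap (−1.36, adjusted p = 1.537e-08), and differed by −0.37 at 6 h (adjusted p = 0.03314). Its values are near the median gene level. Gabpb1, a subunit of GABP, was higher by 0.37 at 3 h (adjusted p = 0.008677). Myc, a factor that acts on ribosome biogenesis genes, differed by −1.18 at 1 h (adjusted p = 3.312e-12) and by 0.48 and 0.56 at 6 and 10 h (adjusted p = 2.039e-06 and 6.878e-07). Whether these genes bear on the members was not tested.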

How the data were processed

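Per the labels' protocols, biotinylated cRNA of each of the 20 cultures was hybridised to an Affymetrix array. The authors deposited log2 values, 1 per probe set and array, made with RMA per the submitters' processing notes, with no version or chip description file stated there. RMA includes a quantile normalization between arrays, which takes out a shift shared by most transcripts. Values ran from 1.44 to 14.71 with array medians of 5.15 to 5.21. The number of arrays limits the precision: standard errors of a difference had a median of 0.13 over all genes and 0.05 over the members.

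Of 45037 probe sets, the platform annotation gave 1 gene for 34945, several for 932 and none for 9160; only the first kind was tested. All 76 members were found in the RefSeq gene table (GRCm38.p6) with the same symbol, which served for names and for the upstream sequences shown. With limma 3.58.1 in R 4.3.3, each group had its own mean in a fit to all 20 arrays (10 residual degrees of freedom), with eBayes and a variance trend. P-values were adjusted by Benjamini-Hochberg over 18193 genes in each comparison at a threshold of 0.05, and "called", "rose", "fell", "higher" and "lower" of counted genes refer to it. Errors are standard errors of the log2 difference, and a fold is 2 raised to it. The labels name no batch.

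Members named were, in each comparison, up to 8 rises and 8 falls by size among called members whose arrays did not overlap, all where 5 or fewer were called, the extremes of level, and up to 2 called genes of each other list; other named members were chosen after their values were seen. The members and lists were chosen with earlier results of these data known. Alternatives were normalization, probe set choice, a level filter, the variance model, array weights, the arrays fitted, the reference group, the replicate number as a block and leaving out each array. Same-numbered arrays of treated and untreated cells at the same time deviated together with r from −0.06 to 0.09, so numbers were not taken to pair the samples.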

Additional observations from a re-analysis of the deposited data

Results flagged for a closer look

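Signals outside the measured members appeared in probe sets that match a member and another gene. The probe set shared by Nme3 and Mrps34 differed by −0.4002 (log2, treated minus untreated) at 6 h, with an adjusted p of 0.001398 over all probe sets (limma), and the part of each gene was not separable. The probe set shared by Ccdc142 and Mrpl53 differed by −0.3106 at 10 h (adjusted p = 0.004379). The effect of TGFβ1 on Mrpl12 differed between 3 and 6 h by −0.251 (limma, adjusted p = 0.04438), the only member for which a change between neighbouring times passed the test. That call was lost in 13 of 17 alternative settings.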

How the results depend on the processing

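Counts of called members (higher plus lower) moved as follows. For treated against untreated cells, the setting with pooled 0 h arrays puts 0 h in place of untreated cells of the same time. Its counts thus hold the change with time and are not counts of the treatment effect alone. For treated against untreated cells at 3 h the count of 6 was 3 with arrays centred on their medians, 2 with every probe set tested, 1 with no variance trend and 1 to 3 when single arrays were left out. At 6 h the count of 21 was 12 with no variance trend, 37 against the pooled 0 h arrays and 12 to 17 without single arrays. At 10 h the count of 23 was 13 with the mean of a gene's probe sets, 11 with no variance trend, 54 against pooled 0 h arrays and 5 to 16 without single arrays. For the mean effect it was 27 to 34 without single arrays, in place of 34. In untreated cells the count of 5 at 3 h was 2 with the probe set mean, 1 with no variance trend and 1 to 2 without single arrays, that of 17 at 6 h was 10 to 15, and that of 41 at 10 h was 30 to 37. In treated cells the count of 6 at 3 h was 3 with no variance trend and 2 to 5 without single arrays, that of 34 at 6 h was 22 to 29, and that of 52 at 10 h was 44 to 49. For the change from 1 to 3 h, 1 member was called with a further quantile normalization, with the probe set mean and with genes above the median level, in place of 0. For 3 to 6 h the count of 1 was 0 with centring, the probe set mean, every probe set, no variance trend, array weights or any array left out, and 2 with genes above the median level or the compared arrays only. For 6 to 10 h it was 1 with the probe set mean and 0 to 1 without single arrays, in place of 0.

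With the replicate block, the count at 6 h was 22 and at 10 h 24, and no count moved by more than 1.5 times. Against pooled 0 h arrays Mrpl41 was higher in treated cells (0.13, 0.10 and 0.16 at 3, 6 and 10 h) and Mrpl24 lower at 10 h (−0.081), since this setting uses another reference. With the mean of its probe sets Mrpl35 differed by −0.10 in untreated cells at 10 h, and Mrpl1 by −0.13 and −0.18 in treated cells at 6 and 10 h, the opposite of the representative probe set. Of 98 values of named members, 47 kept their call under all their alternatives; over 1496 values under alternatives, 1269 kept it, 220 lost it and 7 changed sign. The values under alternatives include those against pooled 0 h arrays, a different comparison. The changes of sign are those given above for the pooled 0 h arrays and for the mean of the probe sets. Why calls were lost was not tested. With 2 arrays per group, a member that missed the threshold is not shown to be unchanged.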
